A study of Homo sapiens with 4 samples.

Results

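The tumour suppressor p53 is a transcription factor whose best known target is the cell cycle inhibitor p21. The genes described here are 10 other direct targets: MDM2, BTG2, SESN1, TP53INP1, ZMAT3, FAS, TNFRSF10B, FDXR, TP53I3 and GDF15. They were found by their names in the array annotation, all 10 of them, among 43317 gene names in all. They were represented by 16 probes, and each of the 16 was well above background on all 4 arrays by the mark that the scanner software sets.

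The arrays measured total RNA of 2 human cancer cell lines with 1-colour Agilent microarrays. HCT116 is a colorectal and A549 a lung cancer line. Each line was transfected with the microRNA miR-891b or with NC1, a negative control RNA, by using the lipid reagent Dharmafect1, which all 4 groups received. The series concerns PSAT1, an enzyme of serine synthesis, and extracellular vesicle release by cancer cells. Each of the 4 combinations of line and transfected RNA was hybridised once, so a change within a line has no replicate check and no p-value. The RNA was from whole cultures, in which fewer cells of a kind and less RNA per cell cannot be told apart. The time from transfection to harvest was not given in the sources used here.

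When DNA is damaged or growth signals are disturbed, p53 is stabilised and switches on genes that stop the cell cycle, repair damage, change metabolism or prepare cell death. MDM2, itself a target, is the ubiquitin ligase that marks p53 for degradation and so closes a negative feedback loop. Several targets, among them GDF15 and TNFRSF10B, are also known to respond to the integrated stress response through ATF4 and CHOP (gene DDIT3), without p53. p53 binds DNA as a tetramer, and its response element is a pair of decamers, each with a short core at its centre.

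The transfected microRNA is shown first, followed by pairs of such cores that were matched by their letters in windows around start sites of the members. The mature miR-891b, from RefSeq (GRCh38.p14), is encoded at chrX:146001100-146001121 on the minus strand. It is printed with its seed, bases 2 to 8, in capitals:

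hsa-miR-891b: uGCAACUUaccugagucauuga

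The DNA site complementary to this seed, AAGTTGC, was found in 0 of the 16 probes of the members, and in 229 of all 58201 probes (0.394%). The probes are 60 bases long and cover a small part of each transcript, so the rest of the transcripts was not searched here.

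RefSeq promoter windows (250 bases before to 50 after a start site, GRCh38.p14) were matched for 8 of the 10 members, with 17 windows in all. TP53INP1 and TNFRSF10B were not matched. The windows were searched for 2 cores with 6 bases between them, where a core may be spelled CAAG, with the other spellings allowed being CATG, further CTAG, and lastly CTTG. This set reads the same on both strands, and the pair occurs in 4.79% of all 35116 windows. A window of each of 3 members held a pair. The SESN1 pair is shown at chr6:109008988-109009067 on the minus strand, the FAS pair at chr10:88991279-88991358 on the plus strand, and the GDF15 pair at chr19:18386181-18386207 on the plus strand, with the cores in capitals:

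SESN1: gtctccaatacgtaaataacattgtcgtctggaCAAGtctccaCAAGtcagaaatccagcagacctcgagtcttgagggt

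FAS: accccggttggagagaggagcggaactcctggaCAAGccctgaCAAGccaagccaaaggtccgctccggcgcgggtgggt

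GDF15: tgcacagcCATGcccgggCAAGaactc

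The 20 bases around the core pair lay at -49 to -30 from one of the SESN1 start sites and at -122 to -103 from one of the FAS start sites. For GDF15 they lay at 29 to 48 after the start site. These are matches of the cores and their spacing only. The bases beside the cores were not checked against the decamers of a p53 element, and binding of p53 was not measured.

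Over the whole series, 44.7% to 50.3% of the 58201 gene probes were well above background on an array, and none was saturated. Levels are given as log2 signal minus the array's 75th percentile, and changes as miR-891b minus NC1 on that scale, so a change of 1 is 2-fold. The labels of the lines were checked on markers: 6 of 6 A549 markers were higher in A549 and 4 of 4 HCT116 markers were lower in A549, with either transfected RNA. ALDH1A1, an A549 marker, was not well above background in HCT116, whereas AKR1B10 had levels of -2.29 (NC1) and 2.18 (miR-891b) there, against 9.88 and 9.69 in A549. Of 8 fibroblast markers, 4 (COL1A2, COL3A1, DCN and FAP) were not well above background on any array. LUM and THY1 were above it in A549 only, and COL1A1 and PDGFRB were in both lines. Both arrays of a line shared a slide and a scan, so line and slide cannot be told apart, and each change with miR-891b lies within 1 slide.

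The HCT116 miR-891b array, on which every HCT116 change rests, stood apart: 10.5% of its gene spots lay in areas of stray signal, where spots that are dim elsewhere were bright, against 0.0213% to 2.20% on the other arrays.

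In HCT116 none of the 10 targets was 2-fold higher and none 2-fold lower with miR-891b, where 1.16% and 0.843% of 19108 measured genes were. The changes ran from -0.38 (GDF15) to 0.15 (MDM2), 5 up and 5 down, with a median of -0.0011 against -0.041 over all measured genes. Outside areas of stray signal 8 members remained, again with 0 past 2-fold, and their median was 0.066 against -0.040. In A549, GDF15 and TP53INP1 were 2.52-fold and 2.80-fold higher, which makes 2 of 10 members at least 2-fold higher where 4.01% of 21338 measured genes were. None of the 10 was 2-fold lower, where 5.57% of the genes were, and FDXR (-0.83) and MDM2 (-0.61) were the lowest. The A549 changes were again 5 up and 5 down, with a median of -0.081 against -0.059 over all measured genes.

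A pair of error estimates within an array were at hand, and neither covers the spread between cultures. The median SD of a log2 change over repeated spots of a probe was 0.061 in HCT116 (276 probes) and 0.071 in A549 (287 probes). Every member probe had 1 spot only, so this spread comes from other probes. The error that the scanner software attaches to each signal, propagated to a change, was 0.20 to 0.25 for the members. The headers of all 4 arrays give the same multiplicative error of 0.1. For bright spots the scanner error is therefore close to a fixed share of the signal, and no spread seen in these data. By this wider scanner error, 8 of the 10 changes in HCT116 were within 1 error of 0, and 1 of the 10 in A549 was. The share of all measured genes within 1 error was not computed, so these counts are not shown to be particular to the members. The 10 changes were larger in size in A549 than in HCT116 for all 10 members, as they were for 64.4% of the 18066 genes measured on all 4 arrays. The SD of the change over all measured genes was 0.38 in HCT116 and 0.61 in A549.

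**Figure D1:**
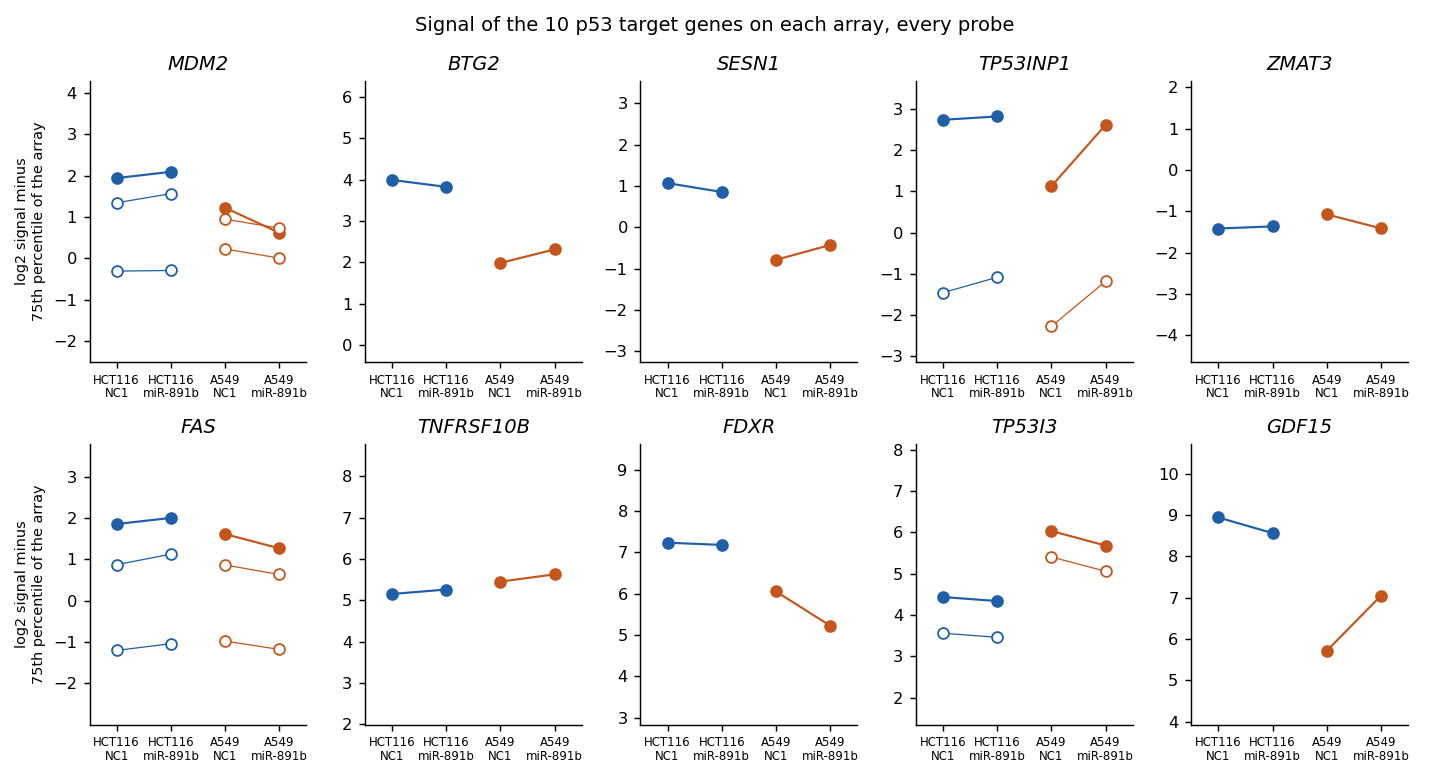
Log2 signal minus the array's 75th percentile (vertical axis, each panel spanning the same number of log2 units) of the 10 genes on the 4 arrays, in HCT116 (blue) and A549 (orange). Filled points are the brightest probe of a gene, open points its other probes, and lines join the arrays of a line. In A549, GDF15 is at 5.71 with NC1 and 7.05 with miR-891b and TP53INP1 at 1.12 and 2.60, while the HCT116 arrays differ by at most 0.38 for any brightest probe.

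MDM2, the feedback ligase, was measured by 3 probes. The brightest (chr12:69238891-69238950, hg19) had levels of 1.94 with NC1 and 2.09 with miR-891b in HCT116, and 1.23 with NC1 and 0.62 with miR-891b in A549. By this probe both HCT116 arrays were above both A549 arrays. The same held for a second probe, with 1.345 and 1.57 in HCT116 and 0.95 and 0.73 in A549. The dimmest probe (chr12:69233822-69233881) ran the other way, with -0.31 and -0.29 in HCT116 and 0.23 and 0.0060 in A549. The change of the brightest probe was 0.15 in HCT116 and -0.61 in A549, or 1.52-fold lower. The other probes lie upstream, at chr12:69233570-69233629 and chr12:69233822-69233881. They gave changes of 0.22 and 0.016 in HCT116 and of -0.22 and -0.22 in A549. All 3 probes were lower with miR-891b in A549, and the smallest HCT116 change lay below the median spread of repeated spots of other probes. The A549 change of the brightest probe was larger in size than that of the others. The mean over the probes was -0.35 in A549.

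BTG2, an antiproliferative gene of the BTG/TOB family, had 1 probe (chr1:203278454-203278513). Its levels were 3.99 (NC1) and 3.83 (miR-891b) in HCT116 and 1.98 (NC1) and 2.31 (miR-891b) in A549. The HCT116 arrays lay clearly above the A549 arrays, and the changes of -0.17 and 0.33 brought the lines slightly closer. The A549 change exceeded the scanner error of 0.20, and 4479 of the 21338 measured A549 genes were as high or higher.

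SESN1 encodes sestrin 1, a stress protein that restrains mTORC1. Its probe (chr6:109308477-109308536, minus strand) gave levels of 1.07 and 0.85 in HCT116 with NC1 and miR-891b, and of -0.79 and -0.43 in A549. The changes were -0.21 and 0.36, a pattern over the 4 arrays like that of BTG2, with the lower line gaining and the higher line losing. With normexp background correction and quantile normalization the A549 change was 0.10, below the 0.21 of its scanner error. The core pair printed above lies in a window of this gene.

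TP53INP1 encodes a nuclear protein that promotes p53 activity, autophagy and cell death. Its brightest probe gave levels of 2.73 (NC1) and 2.81 (miR-891b) in HCT116. In A549 the levels were 1.12 with NC1 and 2.60 with miR-891b. A549 with NC1 thus stood apart as the lowest array, and with miR-891b the A549 level came within 0.21 of the HCT116 level. The change was 0.08 in HCT116 and 1.49 in A549, where 1.35% of measured genes were as high or higher. A second, dimmer probe elsewhere in the gene gave a signal of 26.9 intensity units in HCT116 with miR-891b, and of 15.4 (NC1) and 32.7 (miR-891b) in A549. Its changes were 0.37 in HCT116 and 1.09 in A549, so both probes were past 2-fold with miR-891b in A549. The HCT116 value of that second probe comes from an area of stray signal: 14.9% of nearby spots that were dim elsewhere were bright on the HCT116 miR-891b array, with a median of 15.1 intensity units.

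ZMAT3, a zinc finger protein that binds RNA and regulates splicing and mRNA stability, had a dim probe, with 20.6 and 22.1 intensity units in HCT116 and 35.5 and 27.9 in A549 for NC1 and miR-891b. The probe lies at chr3:178742161-178742220 on the minus strand. The levels were -1.42 and -1.36 in HCT116 and -1.07 and -1.41 in A549, so that 3 arrays lay close together and A549 with NC1 was slightly higher. The A549 change was -0.34 with an error of 0.22, and it was -0.11 after normexp and quantile normalization. The HCT116 change of 0.052 became negative under both quantile normalization (-0.018) and normexp with quantile normalization (-0.048), so no direction is given for it.

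FAS and TNFRSF10B are death receptors of the TNF receptor family, which bind FAS ligand and TRAIL and can start the extrinsic pathway of apoptosis. FAS was measured by 3 probes in the region chr10:90774148-90774604. The brightest gave levels of 1.86 and 2.004 in HCT116 and 1.61 and 1.27 in A549, for NC1 and miR-891b. The changes were 0.15, 0.16 and 0.26 over the 3 probes in HCT116 and -0.35, -0.20 and -0.23 in A549. The probes of FAS, of which 2 overlap, therefore gave 1 sign in HCT116 and the other in A549, with sizes close to the scanner error of 0.20 to 0.23. The window of FAS that holds a core pair is printed above.

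TNFRSF10B, the TRAIL receptor DR5, had levels of 5.15 and 5.26 in HCT116 and 5.45 and 5.63 in A549, with both A549 arrays slightly above both HCT116 arrays. Its changes were 0.11 and 0.18, both within the scanner error of 0.20. The A549 change was 0.39 with quantile normalization and 0.44 with normexp and quantile normalization, which exceed that error.

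FDXR and TP53I3 encode redox enzymes. FDXR, the mitochondrial ferredoxin reductase that feeds electrons to iron-sulfur cluster and steroid synthesis, was measured at chr17:72858650-72858709 on the minus strand. Its signals were 8257 and 8260 intensity units in HCT116, with levels of 7.23 and 7.18. In A549 they were 4963 with NC1 and 2777 with miR-891b, with levels of 6.05 and 5.23. The HCT116 arrays were alike, and A549 with miR-891b was the lowest. The change in A549 was -0.83, or 1.77-fold lower, and 8.37% of measured genes were as low or lower. It shrank to -0.62 with quantile normalization and -0.59 with normexp and quantile normalization. The HCT116 change of -0.054 turned to 0.043 and 0.042 in those settings.

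TP53I3, also named PIG3, is a quinone oxidoreductase linked to reactive oxygen species. It was the 1 member with clearly higher levels in A549, at 6.03 and 5.68 against 4.43 and 4.34 in HCT116. Its changes were -0.10 in HCT116 and -0.35 in A549. The second probe reads across an exon junction, since its 60 bases span chr2:24300615-24302356, and the brightest lies at chr2:24300504-24300563, both on the minus strand. The junction probe gave -0.10 and -0.35 as well. Both spots touch areas of stray signal, the brightest on A549 miR-891b (12.8% of nearby dim spots bright) and the junction probe on HCT116 miR-891b (11.54%). Those stray spots had medians of 23.2 and 14.1 intensity units, against 3805 and 626 for the TP53I3 spots. With quantile normalization the A549 change was -0.12.

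GDF15 encodes a secreted cytokine of the TGF-beta superfamily that is released by stressed cells and acts on appetite through its receptor GFRAL. Its probe (chr19:18499890-18499949) gave 27014 and 21578 intensity units in HCT116 and 3924 and 9827 in A549, for NC1 and miR-891b. The levels were 8.94 and 8.56 in HCT116 and 5.71 and 7.05 in A549, so that both HCT116 arrays lay above both A549 arrays. The change was -0.38 in HCT116, or 1.30-fold lower, and 1.33 in A549. Of the measured genes, 2679 of 19108 were as low or lower in HCT116 and 1.85% were as high or higher in A549. The HCT116 change was -0.15 with normexp and quantile normalization, within its error of 0.20, and the A549 change was 1.71 in that setting. On HCT116 miR-891b the spot lies in an area of stray signal, where 23 of 158 nearby dim spots (14.6%) were bright with a highest signal of 53.1 intensity units, far below the GDF15 signal.

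**Figure D2:**
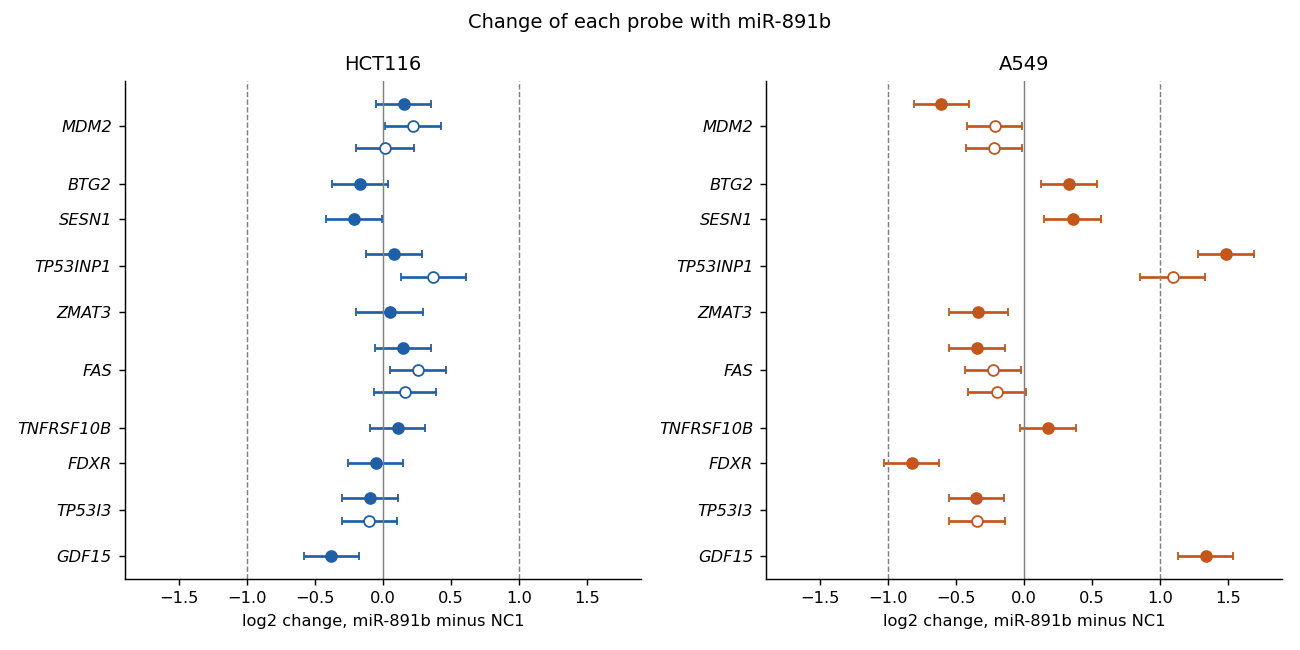
Log2 change (miR-891b minus NC1, horizontal axis) of each of the 16 probes in HCT116 (left) and A549 (right), with bars of 1 scanner error on each side and dashed lines at 2-fold. Filled points are the brightest probe of a gene. GDF15 and both TP53INP1 probes lie past 2-fold in A549 and no probe does in HCT116.

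The lines were then compared for the direction of change. Of the 10 members, 6 had opposite signs in the 2 lines (MDM2, BTG2, SESN1, ZMAT3, FAS and GDF15), as 45.1% of the 18066 genes measured on all 4 arrays had. On the main scale, TP53INP1 and TNFRSF10B were higher and FDXR and TP53I3 lower with miR-891b in both lines. FDXR and ZMAT3 are the members whose sign in HCT116 depended on the scaling. Of the 10 HCT116 changes, 8 were within 1 scanner error of 0, so most of these HCT116 signs are not established. The A549 change exceeded the HCT116 change by 1.71 for GDF15 and by 1.40 for TP53INP1, and was below it by a difference of -0.77 for FDXR and -0.76 for MDM2. With 1 array per group these differences could not be tested.

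**Figure D3:**
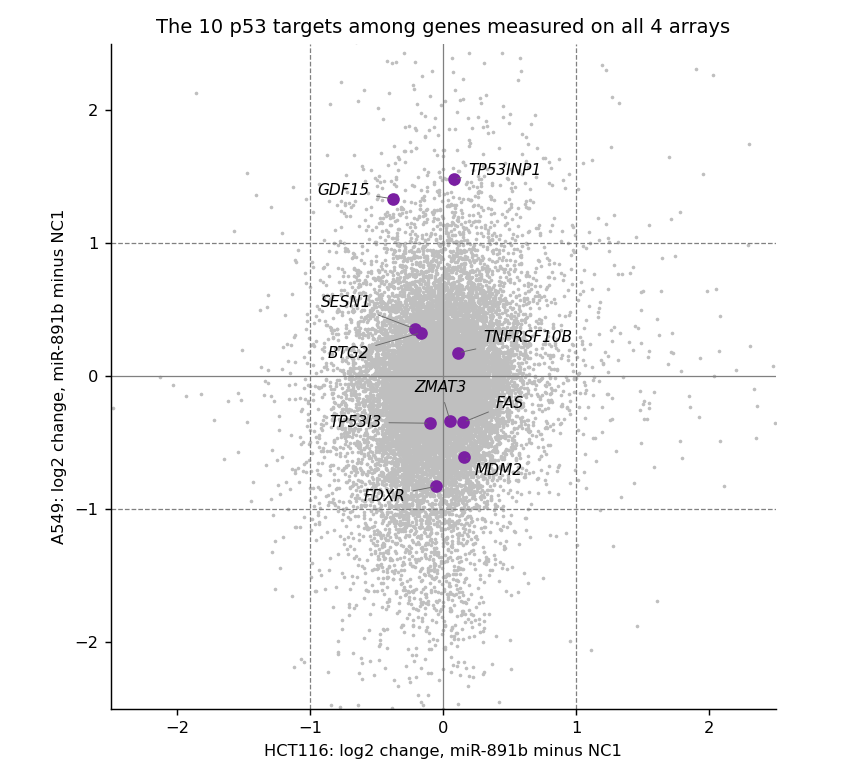
Log2 change with miR-891b in HCT116 (horizontal axis) and A549 (vertical axis) for genes measured on all 4 arrays (grey) and the 10 p53 targets (purple), with dashed lines at 2-fold. Of 18066 genes, 45 lie beyond the axes. GDF15 and TP53INP1 lie above the 2-fold line of A549, and the other 8 members lie within the 2-fold lines of both cell lines.

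The effect of miR-891b was tested across the lines with an additive limma model, in which the cell line is a term and 1 residual degree of freedom remains. That residual is the difference between the changes of the 2 lines, so the SEs of this model do not measure the spread between cultures. A gene that changes in 1 line only is hard to call with it. After Benjamini-Hochberg adjustment, limma called 0 of 22711 genes (0.0%) at 0.05, while 1214 had an unadjusted p under 0.05. No other tool was run. None of the 10 members passed, and none had an unadjusted p under 0.05. The mean change of TP53INP1 was 0.78 ± 0.41 (SE), with an adjusted p of 0.793 from limma. Its change was 1.49 in A549, and 0.08 in HCT116, within the scanner error of 0.20 there. FDXR followed with -0.44 ± 0.30 (adjusted p 0.802, limma), lower in A549, while its sign in HCT116 depended on the scaling. GDF15 had 0.48 ± 0.48 (adjusted p 0.853, limma). On simulated data with 22711 genes, the model found 0 of 40 genes at a 2-fold effect. At 4-fold it found 2 of 40, and at 8-fold 22 of 40.

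The same model compared the levels of the lines. At an adjusted p under 0.05, 15.5% of the 22711 genes were higher in A549 and 16.4% were lower, and of the 10 members 1 was higher and 4 were lower. BTG2 was lower in A549 by a log2 difference of -1.76 ± 0.26 (SE; adjusted p 0.0139, limma), SESN1 by -1.57 ± 0.27 (adjusted p 0.0200) and FDXR by -1.57 ± 0.30 (adjusted p 0.0255). TP53I3 was higher in A549 by 1.47 ± 0.24 (adjusted p 0.0175, limma). These 4 genes had the same direction with both transfected RNAs, which is no separate support. The estimate is the mean of the differences on the NC1 and the miR-891b arrays, so a call largely requires a shared direction. BTG2 was 4.03-fold lower on the NC1 arrays and 2.85-fold lower on the miR-891b arrays, and TP53I3 was 3.03-fold and 2.54-fold higher.

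GDF15 was lower in A549 by a difference of -2.37 ± 0.48 (adjusted p 0.0290, limma), from 9.38-fold on the NC1 arrays to 2.86-fold on the miR-891b arrays. This call was lost with quantile normalization (adjusted p 0.0565) and with normexp and quantile normalization (adjusted p 0.108). The difference of MDM2 depended on the probe: it was -1.10 ± 0.30 for the brightest (adjusted p 0.0568, limma) and -0.43 for the mean over its 3 probes (adjusted p 0.261). TP53INP1 (-0.91 ± 0.41, adjusted p 0.167) and FAS (-0.49 ± 0.26, adjusted p 0.217) did not pass in limma. Neither did TNFRSF10B (0.33 ± 0.23, adjusted p 0.322) or ZMAT3 (0.15 ± 0.25, adjusted p 0.675), and for these 4 genes and MDM2 levels in the lines were not shown to differ. The line and the slide cannot be told apart in any of these values.

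**Figure D4:**
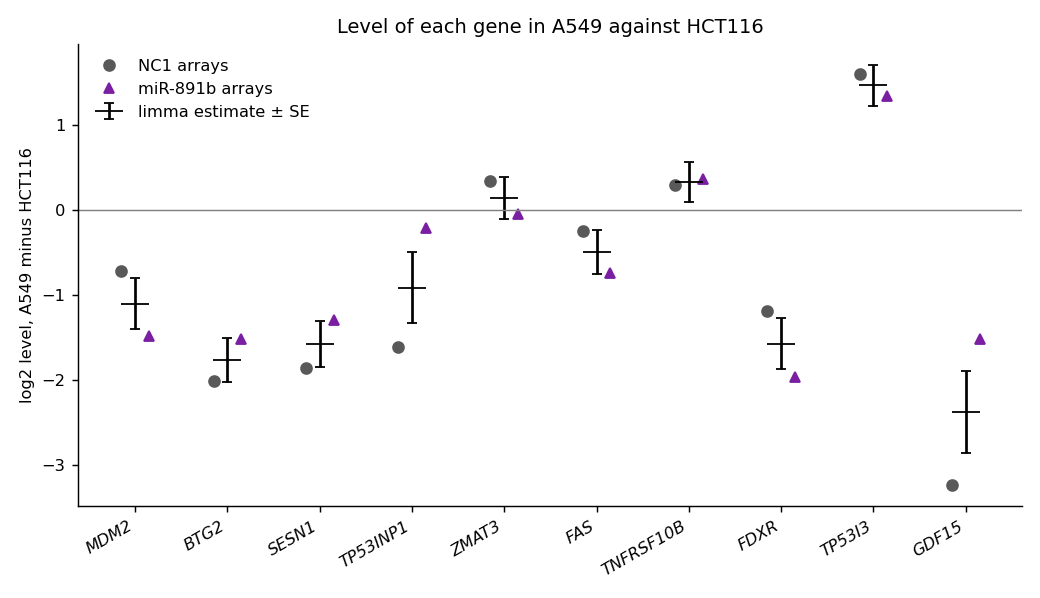
Log2 level in A549 minus HCT116 (vertical axis) of the 10 genes on the NC1 arrays (circles) and the miR-891b arrays (triangles), with the limma estimate and 1 SE on each side (black). TP53I3 lies above 0 on both, BTG2, SESN1, FDXR and GDF15 lie below it on both, and TP53INP1 moves from -1.61 to -0.21.

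Other genes of the p53 network were taken from lists. The list of 33 other p53 targets had 28 measured genes in HCT116, of which 2 were at least 2-fold higher and 0 lower, and 31 in A549, of which 0 were at least 2-fold higher and 1 lower. Over all measured genes these shares were 1.16% higher and 0.843% lower in HCT116, and 4.01% and 5.57% in A549. The medians of the list were 0.084 in HCT116 and 0.095 in A549. PMAIP1 (NOXA), a BH3-only protein that promotes apoptosis, had a change of 1.46 in HCT116 and 0.36 in A549. PLK2, a polo-like kinase, had 1.07 and -0.068. DDB2, a sensor of ultraviolet damage, had -0.29 in HCT116 and -1.10 in A549, and its second probe gave -0.30 and -1.03. CDKN1A, the gene of p21, was measured by 1 probe and had a change of 0.35 in HCT116 and -0.28 in A549.

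Of 17 genes that regulate p53, 16 were measured in each line, with medians of 0.054 in HCT116 and -0.15 in A549. USP7, the deubiquitinase of MDM2 and p53, was the 1 regulator past 2-fold, at 2.20 in HCT116 against 0.050 in A549. Around its spot on HCT116 with miR-891b, 13.7% of nearby dim spots were bright, and the part of that stray signal in the value was not tested.

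Genes of neighbouring programmes were set beside the A549 changes of GDF15 and TP53INP1. Of 12 genes of the integrated stress response, all measured in A549, 3 were at least 2-fold higher there: NUPR1 (2.13), DDIT3 (1.56) and ATF3 (1.26), where 4.01% of all measured genes were. The other ATF3 probes gave 0.31 to 1.72, the highest of them from a probe not well above background with NC1. ATF4 (-0.48) and ASNS (-0.71) were lower in A549, and the list's median was 0.014. In HCT116, where GDF15 was lower, 11 of 11 measured genes of this list were lower, 4 of them at least 2-fold (NUPR1, CHAC1, DDIT4 and ASNS, from -1.86 to -1.05), with a median of -0.57. Of all measured HCT116 genes, 55.4% were lower and 0.843% at least 2-fold lower. Of 15 cell cycle genes that p53 is known to lower through p21, 15 were at least 2-fold lower in A549 by their brightest probes. Their changes ran from -2.18 (CDC25C) to -1.49 (BIRC5), and none was past 2-fold in HCT116. Of all measured A549 genes, 5.57% were at least 2-fold lower. A dimmer probe of CDK1 (-0.90) and 1 of MKI67 (-0.97) missed that limit in A549, while other probes of CCNB1, KIF23, PLK1 and MKI67 passed it. That CDK1 probe gave 1.43 in HCT116, where it was not well above background with NC1. Around the brightest CDK1 spot, 29.4% of nearby dim spots were bright on A549 miR-891b. The lists were chosen with earlier results of these data known, so these counts are a description and no independent result. CDKN1A had a change of -0.28 in A549, and a route through p21 was not tested. The part of these programmes in the changes of the p53 targets was not tested.

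**Figure D5:**
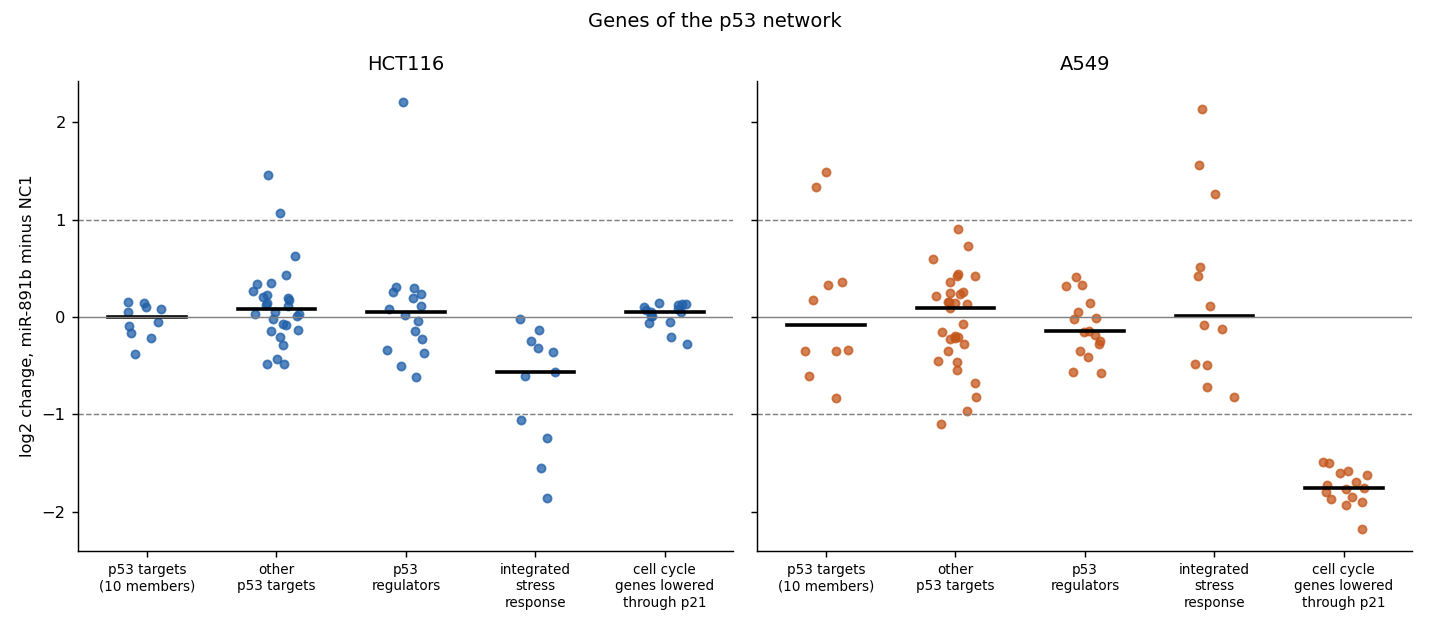
Log2 change (miR-891b minus NC1, vertical axis) of each measured gene in HCT116 (left) and A549 (right) for the 10 members and 4 lists, with the median as a bar and dashed lines at 2-fold. The 15 cell cycle genes lie between -2.18 and -1.49 in A549, while the medians of the members and of the other p53 targets lie between -0.081 and 0.095 in both lines.

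For the members past 2-fold, the genes with the most similar 4 levels were sought among 13348 named genes measured on all 4 arrays, by the Euclidean distance between levels centred on their mean. Nearest to GDF15 were AZIN2 (distance 0.064), LRRC3 (0.16) and CYP27B1 (0.20). Nearest to TP53INP1 were SRPX (0.072), CLIC2 (0.17) and SEL1L3 (0.18). AZIN2 had changes of -0.29 in HCT116 and 1.32 in A549, and SRPX of 0.0049 and 1.49. A likeness over 4 arrays is a description of those arrays.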

How the data were processed

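Total RNA (100 ng, Cy3) was hybridised to 1-colour arrays, with 1 array in each of 4 groups named by the sample titles. Per the file headers and the submitters' processing notes, Agilent Feature Extraction 11.5.1.1 produced the deposited intensity values, with spatial and multiplicative detrending switched on and hg19 probe coordinates. The deposited table of the authors' log2 values has no stated making. It differed from the scale used here by a median of 0.0069 or less per array and served as an alternative; its column medians were -3.80 to -3.60.

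Spots marked as outliers were left out, log2 processed signals were averaged per probe, and the array's 75th percentile over gene probes was subtracted. These percentiles were 54.9, 57.0, 74.8 and 74.2 intensity units (HCT116 with NC1, then miR-891b; A549 in the same order). A gene took the values of its brightest probe, and was measured in a line where the scanner software marked that probe so on each of the line's arrays. Without replicates, 2-fold was the limit for a call. limma 3.58.1 (R 4.3.3) fitted the additive model to genes above background on at least 2 arrays, with Benjamini-Hochberg adjustment over all of them. Precision is limited by the number of arrays.

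Named genes were the 10 members with every probe, the 3 genes nearest to each member past 2-fold (those known only by an accession or locus number left out), CDKN1A and list genes past 2-fold; another gene that the rule names is not reported here. Of the lists, not every gene past 2-fold is named, and ATF4 was singled out after its values were seen. TIGAR was not matched by that name. The members and lists were chosen with earlier results of these data known. The fit was tested on simulated data. Exon annotation on hg19 was not used here. Python 3.11.15, numpy 2.4.6 and pandas 2.3.3 were used.

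The alternatives were quantile normalization, with and without normexp correction of the background (offset 50), scaling by the median, the authors' values, no filter on dim probes, the mean over probes, other fold limits, and leaving out areas of stray signal (at least 10% of nearby spots, within 10 rows and columns, that are dim elsewhere being bright on an array), which removed 8635 probes.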

Additional observations from a re-analysis of the deposited data

Results flagged for a closer look

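For 5 members the change had opposite signs in the 2 lines and exceeded the spread of repeated spots in both, the rule by which they were flagged. That spread is a median over other probes, since each member probe had 1 spot. Opposite signs alone were found in 45.1% of the 18066 genes measured on all 4 arrays. The share of all genes that pass the whole rule was not computed, so the flag is not shown to be particular to these members. By the wider scanner error, the HCT116 changes of MDM2 (0.15), FAS (0.15) and BTG2 (-0.17) were within 1 error (0.20) of 0. The change in A549 minus that in HCT116 was 1.71 for GDF15, 0.57 for SESN1, 0.50 for BTG2, -0.49 for FAS and -0.76 for MDM2. None of these differences was tested, since no group has a second array. The opposite signs of these 5 held under all 3 other scalings and the authors' values.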

How the results depend on the processing

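The count of members past 2-fold was 0 in HCT116 under all 9 alternatives tried there. Of these, the 3-fold limit and dropping the filter on dim probes could not raise it, and the authors' values are close to the main scale. In A549 it was 2, and changed in 3 of 9 alternatives: it was 4 at 1.5-fold (FDXR and MDM2 lower), 0 at 3-fold and 1 outside areas of stray signal, where GDF15 and TP53I3 had no probe left. The additive fit called 0 members under all 7 alternatives. The count of members differing between the lines was 5, and 3 of the remaining 8 outside areas of stray signal; it was 4 with either quantile setting. Of 150 alternative values of single members and medians, 137 were within the scanner error of the main value and 0 reversed a change past 2-fold. Many of the 150 could not move, so the 137 is no measure of robustness. With no filter on dim probes every member kept its main value, since all 16 probes were well above background. Leaving out areas of stray signal changed no remaining member, and the mean over probes changed none of the 6 members with 1 probe. The 13 that moved further came from the quantile settings, with or without normexp, except the MDM2 value in A549 from the mean over probes. The A549 median over members moved from -0.081 to 0.12 with quantile normalization. Among all genes, the share of higher calls in HCT116 was 57.9%, and 69.2% with normexp (27 higher, 12 lower) and 49.3% outside areas of stray signal. With no filter on dim probes the HCT116 median over all genes moved from -0.041 to 0.20, and the counts to 2788 higher and 1434 lower, against 221 and 161. That setting gave 2934 higher and 3081 lower in A549, against 855 and 1189, and normexp gave 335 and 429. The additive fit called 6 genes with no filter, none a member. No array could be left out, since each group has 1. The additive fit already compares the arrays within each line. With 1 array per group, no arrays within a line were left to be matched further.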
